A study of Mus musculus with 8 samples.

Results

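This account covers 45 genes of oxygen sensing, glycolysis and the wider hypoxia response in mouse mammary tumors that carry a Wnt1 transgene with or without a human ILK transgene. A gene was measured where a row of the deposited array table was annotated with that gene alone, and where a gene had several rows the brightest on average was used. Of the 45 genes, 40 had such a row, among 14996 rows naming 1 gene (14860 genes) and 23332 rows in all. They fell into 7 genes of oxygen sensing (7 measured), 22 of glucose uptake and glycolysis (17 measured) and 16 other hypoxia-induced genes (16 measured).

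RNA came from 4 tumors of MMTV-Wnt/ILK mice and 4 tumors of MMTV-Wnt1 mice, and each was read on its own Affymetrix exon array. Both groups carried Wnt1 under the mouse mammary tumor virus promoter, which drives the transgene in mammary epithelium, and the MMTV-Wnt/ILK mice carried human ILK under the same promoter in addition. All were nulliparous females. The RNA was taken from snap-frozen pieces of whole tumor, so each array reads the tumor cells together with the stroma, vessels and fat of that piece. The age at removal is not given in the sources used here. The paper calls the tumors independent, but the labels do not say whether each came from a different mouse, so p-values measure the spread between these tumors.

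Cells respond to low oxygen through the hypoxia-inducible factors, dimers of an oxygen-labile alpha subunit (Hif1a or Epas1) and the constant partner Arnt. In oxygen, the prolyl hydroxylases Egln1, Egln2 and Egln3 mark the alpha subunit and the ubiquitin ligase component Vhl sends it for degradation, so the alpha subunits are controlled mainly as proteins and much less as transcripts. When stabilized, the dimer binds the core ACGTG or GCGTG near its targets and raises transcription of glucose transporters, glycolytic enzymes, angiogenic factors, pH regulators and collagen-modifying enzymes. Tumors outgrow their blood supply in places, and expression of these genes is commonly patchy within a tumor.

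The promoters of the measured and unmeasured members were searched for these cores in RefSeq windows of the GRCm38.p6 assembly that run from 250 bases before to 50 bases after each annotated start, with ACGTG and GCGTG counted on both strands. ACGTG on both strands can overlap as CACGTG and then counts on each strand. At least 1 core was found in a window of 36 of the 40 members with a window (90.0%), and in 46.7% of all genes with one. The count was 5 of 6 oxygen-sensing members, 18 of 21 glycolytic members (85.7%) and 13 of 13 other hypoxia-induced members. ACGTG alone was in a window of 26 of the 40 members (65.0%) and in 21.8% of all genes. A match describes the letters of the window and is not a binding site. Epas1, Plod2, Slc2a3, Ndrg1 and Bnip3l were not matched to a window. The 150 bases before the start are printed below, 5′ to 3′ in the direction of the gene, with each core in capitals on whichever strand it lies (CACGT and CACGC are the reverse strand's ACGTG and GCGTG). Slc16a3, Car9 and Adm are shown because they shared a pattern across individual tumors that is described further on. Slc2a1 is shown because it was high in the same tumors and in 1 more. Egln1, Hk2 and Tpi1 are shown because they had the smallest p-values among the members. The stretch before Tpi1 held none of these letters.
Slc2a1 promoter (chr4:119108595-119108744, plus strand): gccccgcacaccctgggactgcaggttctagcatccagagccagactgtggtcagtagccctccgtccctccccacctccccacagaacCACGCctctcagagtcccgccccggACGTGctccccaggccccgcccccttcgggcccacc
Slc16a3 promoter (chr11:120948917-120949066, plus strand): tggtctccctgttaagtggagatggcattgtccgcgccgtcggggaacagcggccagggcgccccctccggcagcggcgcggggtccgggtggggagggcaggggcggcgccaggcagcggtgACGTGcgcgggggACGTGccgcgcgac
Car9 promoter (chr4:43506876-43507025, plus strand): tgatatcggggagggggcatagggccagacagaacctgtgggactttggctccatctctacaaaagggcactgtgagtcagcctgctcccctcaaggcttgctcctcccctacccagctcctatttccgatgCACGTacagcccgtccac
Adm promoter (chr7:110627507-110627656, plus strand): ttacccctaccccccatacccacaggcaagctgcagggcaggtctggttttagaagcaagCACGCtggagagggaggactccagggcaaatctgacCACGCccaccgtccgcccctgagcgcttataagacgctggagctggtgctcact
Egln1 promoter (chr8:124949255-124949404, minus strand): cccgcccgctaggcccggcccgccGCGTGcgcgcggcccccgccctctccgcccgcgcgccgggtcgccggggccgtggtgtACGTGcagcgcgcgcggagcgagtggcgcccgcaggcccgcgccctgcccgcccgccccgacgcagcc
Hk2 promoter (chr6:82774455-82774604, minus strand): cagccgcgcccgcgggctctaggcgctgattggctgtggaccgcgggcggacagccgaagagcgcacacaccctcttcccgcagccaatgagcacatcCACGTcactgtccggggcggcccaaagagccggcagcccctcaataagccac
Tpi1 promoter (chr6:124814159-124814308, minus strand): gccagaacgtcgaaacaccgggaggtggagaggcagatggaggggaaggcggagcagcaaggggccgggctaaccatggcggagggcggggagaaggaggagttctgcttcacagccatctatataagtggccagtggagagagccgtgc

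The labelled tissue was borne out by the epithelial markers. Epcam lay between 12.39 and 12.82 in MMTV-Wnt/ILK tumors and between 12.33 and 12.89 in MMTV-Wnt1 tumors on the log2 scale of the arrays, and Krt18 between 11.47 and 12.26 and between 11.15 and 12.67. The array medians ran from 6.89 to 7.23 and the lower quartiles from 5.50 to 5.62, and the correlation between arrays from 0.920 to 0.974. The Wnt1 row ran from 10.48 to 10.99 in MMTV-Wnt/ILK tumors and from 10.01 to 11.10 in MMTV-Wnt1 tumors. The mouse Ilk row differed by 0.14 with a standard error (SE) of 0.15, and it is unknown here whether that row sees the human transgene. Adm in MMTV-Wnt/ILK tumor 4 was the 1 member value that lay under its array's lower quartile. All values of genes below are log2 values, and differences are MMTV-Wnt/ILK minus MMTV-Wnt1. Values of different genes come from different probes and are not set against each other.

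The design sets tumors with both transgenes against tumors with Wnt1 alone. No member differed between the groups after adjustment. The smallest adjusted p over all rows was 0.905 (limma, Benjamini-Hochberg over 23332 rows), and 0 rows passed 0.05 (0% of all rows). At an unadjusted p under 0.05 from limma, 3 of the 40 members were lower in MMTV-Wnt/ILK tumors, namely the oxygen sensor Egln1 and the glycolytic enzymes Hk2 and Tpi1, and 0 were higher. At that threshold 5.11% of all rows passed, 2.21% lower and 2.91% higher, and 3.71% of rows naming 1 gene, 1.84% lower and 1.87% higher. The tumors of the groups overlapped for all 40 members, where the groups did not overlap in 2.9% of all rows and 2.7% of rows naming 1 gene.

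The direction of the means was less even than this. The mean was lower in MMTV-Wnt/ILK tumors for 33 of the 40 members and higher for 7, against 54.7% of all rows with a lower and 45.3% with a higher mean, and 59.1% and 40.9% of rows naming 1 gene. Among rows naming 1 gene that were brighter than their median row, 52.8% had a lower mean. It was lower for 15 of 17 glycolytic members, 14 of 16 other hypoxia-induced members and 4 of 7 oxygen-sensing members. The median difference was -0.28 for glycolytic members (from -0.76 to 0.14), -0.35 for other hypoxia-induced members (from -0.85 to 0.12) and -0.15 for oxygen-sensing members (from -0.51 to 0.12), with -0.03 over all rows. The mean was lower by more than 0.5 for 8 of the 40 members, against 5.42% of all rows, 4.35% of rows naming 1 gene and 3.09% of those brighter than their median row. These signs depend on the scale. Actb itself differed by -0.55 (SE 0.23), and with each array expressed relative to Actb only 6 of the 40 members had a lower mean and the medians were 0.27 for glycolytic, 0.21 for other hypoxia-induced and 0.40 for oxygen-sensing members. That scaling shifts the difference of every row by the same amount, and it moved the median of all rows to 0.52. Positions relative to the median of all rows are therefore identical on both scales and are no check on the scale. Of the 40 members, 33 lay below the median of all rows, and the members stood at a median of -0.27 relative to it. With 1 tumor omitted that median was nearest to 0 without MMTV-Wnt/ILK tumor 4 (-0.15), MMTV-Wnt1 tumor 1 (-0.16, with 29 below) and MMTV-Wnt/ILK tumor 2 (-0.18), and farthest without MMTV-Wnt1 tumor 2 (-0.37). In whole tumors, fewer cells of a type and less RNA per cell cannot be told apart.

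**Figure D1:**
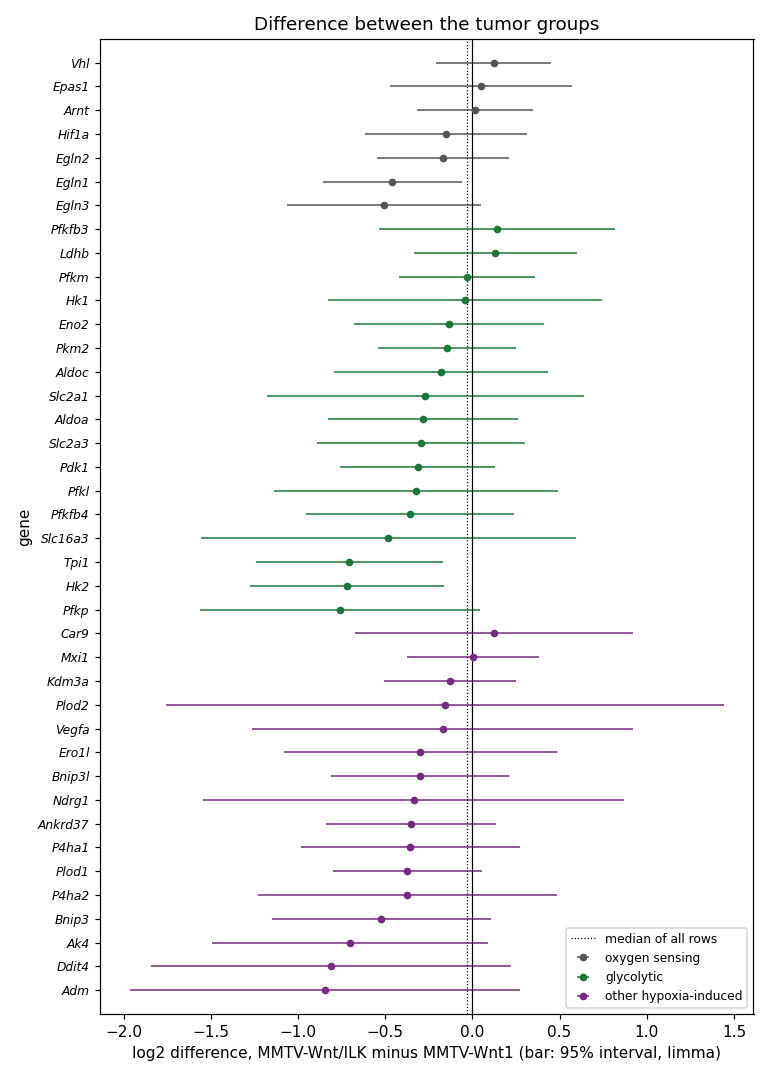
Log2 difference, MMTV-Wnt/ILK minus MMTV-Wnt1, for the 40 measured genes (points) with 95% intervals from limma (bars), colored by role; the dotted line is the median of all rows. Of the 40 genes, 33 lie below 0 (6 when values are taken relative to Actb), and the intervals of Egln1, Hk2 and Tpi1 alone leave out 0.

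Among the genes of oxygen sensing, the transcripts of the transcription factors themselves were close between groups. Hif1a, the oxygen-labile subunit, was at 10.07, 10.28, 10.10 and 10.18 in MMTV-Wnt/ILK tumors 1 to 4 and at 10.10, 10.59, 9.86 and 10.68 in MMTV-Wnt1 tumors 1 to 4. The MMTV-Wnt1 tumors spread on both sides of the MMTV-Wnt/ILK tumors, and the difference was -0.15 (SE 0.20, 95% interval from -0.61 to 0.31; exact permutation test, p = 0.429). Epas1, the related HIF-2 alpha subunit that is abundant in endothelium, was at 9.27, 9.50, 9.33 and 9.23 in MMTV-Wnt/ILK tumors and at 9.16, 9.96, 9.04 and 8.97 in MMTV-Wnt1 tumors. MMTV-Wnt1 tumor 2 was the highest for Epas1 and also the highest of the 8 for all 6 endothelial markers, whose mean level was 9.66 there, against 8.25 to 8.75 in MMTV-Wnt/ILK tumors and 8.26 to 8.48 in the other MMTV-Wnt1 tumors; the part of endothelium in the Epas1 value was not tested. The difference for Epas1 was 0.05 (SE 0.23). Arnt and Vhl differed by 0.02 (SE 0.15) and 0.12 (SE 0.14).

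Egln1, the prolyl hydroxylase that sets the basal level of HIF-1 alpha, was at 9.17, 9.09, 9.53 and 9.09 in MMTV-Wnt/ILK tumors and at 9.79, 9.68, 9.35 and 9.90 in MMTV-Wnt1 tumors. MMTV-Wnt/ILK tumors 1, 2 and 4 were lower than every MMTV-Wnt1 tumor, and tumor 3 lay within their span. The difference was -0.46 (SE 0.18, a fold of 0.727; 95% interval from -0.86 to -0.06; limma, unadjusted p = 0.0285 and adjusted p = 0.905; exact permutation test, p = 0.0571). With 4 tumors against 4, the smallest p this 2-sided permutation test can give is 0.029. The unadjusted p of Egln1 was no longer under 0.05 in 6 of the 8 limma fits that left out 1 tumor, namely when MMTV-Wnt/ILK tumor 1, 2 or 4 was omitted (differences of -0.44, -0.42 and -0.42) and when MMTV-Wnt1 tumor 1, 2 or 4 was omitted (-0.42, -0.46 and -0.39), where it ran from 0.0527 to 0.0772. It was 0.0147 when MMTV-Wnt/ILK tumor 3 was omitted (-0.56) and 0.0111 when MMTV-Wnt1 tumor 3 was (-0.57). Relative to Actb its difference was 0.09.

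Egln3, the hydroxylase most strongly induced by hypoxia, was at 10.14, 10.35, 10.25 and 9.88 in MMTV-Wnt/ILK tumors and at 11.33, 10.34, 10.68 and 10.30 in MMTV-Wnt1 tumors. It had the widest range of this group of genes, and MMTV-Wnt/ILK tumors 1, 3 and 4 were lower than every MMTV-Wnt1 tumor, while MMTV-Wnt1 tumor 1 stood highest. The difference was -0.51 (SE 0.25, limma, unadjusted p = 0.0683). Leaving out MMTV-Wnt1 tumor 2 or 4, its 2 lowest MMTV-Wnt1 values, gave -0.62 and -0.63, each with an unadjusted p under 0.05 from limma, and leaving out MMTV-Wnt1 tumor 1, the highest, gave -0.29 (limma, unadjusted p = 0.137). Egln2, which responds little to hypoxia, differed by -0.17 (SE 0.17).

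Glucose enters the cell through the transporters Slc2a1 and Slc2a3. Slc2a1, which encodes GLUT1, was at 9.87, 9.82, 10.54 and 9.40 in MMTV-Wnt/ILK tumors and at 10.95, 9.14, 10.62 and 10.00 in MMTV-Wnt1 tumors. The MMTV-Wnt/ILK tumors lay inside the span of the MMTV-Wnt1 tumors, and the difference of -0.27 (SE 0.40; exact permutation test, p = 0.571) was smaller than its error. Slc2a3 differed by -0.29 (SE 0.26), with MMTV-Wnt1 tumor 4 at 7.80 and the other 7 tumors between 6.47 and 7.03.

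Hexokinase, phosphofructokinase and triosephosphate isomerase held the largest differences of the glycolytic genes. Hk2, the inducible hexokinase that traps glucose in the cell, was at 7.74, 7.57, 8.48 and 7.51 in MMTV-Wnt/ILK tumors and at 8.88, 8.28, 8.40 and 8.62 in MMTV-Wnt1 tumors. MMTV-Wnt/ILK tumors 1, 2 and 4 were lower than every MMTV-Wnt1 tumor, and tumor 3 lay among them. The difference was -0.72 (SE 0.25, a fold of 0.608; 95% interval from -1.27 to -0.16; limma, unadjusted p = 0.0171 and adjusted p = 0.905; exact permutation test, p = 0.0857). The unadjusted p stayed under 0.05 in 7 of the 8 fits that left out 1 tumor and was 0.0509 without MMTV-Wnt/ILK tumor 4 (difference -0.61, limma). Relative to Actb the difference was -0.17 (limma, unadjusted p = 0.616). Hk1, the constitutive hexokinase, differed by -0.05 (SE 0.35), and its highest value was in MMTV-Wnt1 tumor 3.

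Pfkp, the platelet-type subunit of phosphofructokinase, the committed step of glycolysis, was at 9.12, 8.95, 9.96 and 8.49 in MMTV-Wnt/ILK tumors and at 9.86, 9.67, 10.63 and 9.41 in MMTV-Wnt1 tumors. MMTV-Wnt/ILK tumors 1, 2 and 4 again were lower than every MMTV-Wnt1 tumor and tumor 3 did not. The difference was -0.76 (SE 0.35, a fold of 0.591; limma, unadjusted p = 0.0618; exact permutation test, p = 0.143). It was -1.04 without MMTV-Wnt/ILK tumor 3 and -0.92 when MMTV-Wnt1 tumor 4 was omitted, each with an unadjusted p under 0.05 from limma, but -0.55 with MMTV-Wnt/ILK tumor 4 omitted and -0.51 with MMTV-Wnt1 tumor 3 omitted. The liver-type subunit Pfkl differed by -0.32 (SE 0.36) and the muscle-type subunit Pfkm by -0.03 (SE 0.17). Pfkfb3 and Pfkfb4, which make and break down the activator fructose 2,6-bisphosphate, differed by 0.14 (SE 0.30) and -0.36 (SE 0.26).

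Tpi1, which interconverts the triose phosphates, was at 11.11, 11.53, 11.53 and 10.84 in MMTV-Wnt/ILK tumors and at 12.03, 11.45, 12.32 and 12.02 in MMTV-Wnt1 tumors. MMTV-Wnt1 tumors 1, 3 and 4 lay above all MMTV-Wnt/ILK tumors, and MMTV-Wnt1 tumor 2 lay among them. The difference was -0.71 (SE 0.24, a fold of 0.613; 95% interval from -1.24 to -0.17; limma, unadjusted p = 0.0157 and adjusted p = 0.905; exact permutation test, p = 0.0857). Its unadjusted p stayed under 0.05 in all 8 fits that left out 1 tumor, and relative to Actb the difference was -0.16 (limma, unadjusted p = 0.615). The aldolases upstream of it differed less, Aldoa by -0.28 (SE 0.24) and Aldoc by -0.18 (SE 0.27).

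In the last steps of the pathway, Eno2, the neuronal enolase, differed by -0.13 (SE 0.24). Ldhb, the lactate dehydrogenase subunit of oxidative tissue, differed by 0.13 (SE 0.20). Pdk1, a kinase that inhibits pyruvate dehydrogenase, differed by -0.31 (SE 0.20). Ldhb had a second, dimmer row with a difference of 0.17. The row annotated with Pkm, the current symbol of Pkm2, differed by -0.15 (SE 0.17), but of the 20 named rows nearest to it 0 named a gene of chromosome 9, where Pkm lies, so this row may not read the gene; without it the glycolytic median was -0.29. Slc16a3, which encodes the lactate exporter MCT4, was at 7.67, 6.48, 8.18 and 6.72 in MMTV-Wnt/ILK tumors and at 8.70, 6.96, 7.33 and 7.98 in MMTV-Wnt1 tumors. The highest values of Slc16a3 were in MMTV-Wnt1 tumor 1 and MMTV-Wnt/ILK tumor 3, and the groups overlapped widely (difference -0.48, SE 0.47; exact permutation test, p = 0.429). Ldha, Pgk1, Eno1 and Gpi1 were named by no row, and Pgam1 shares its row with another gene, so these 5 glycolytic members have no value here.

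**Figure D2:**
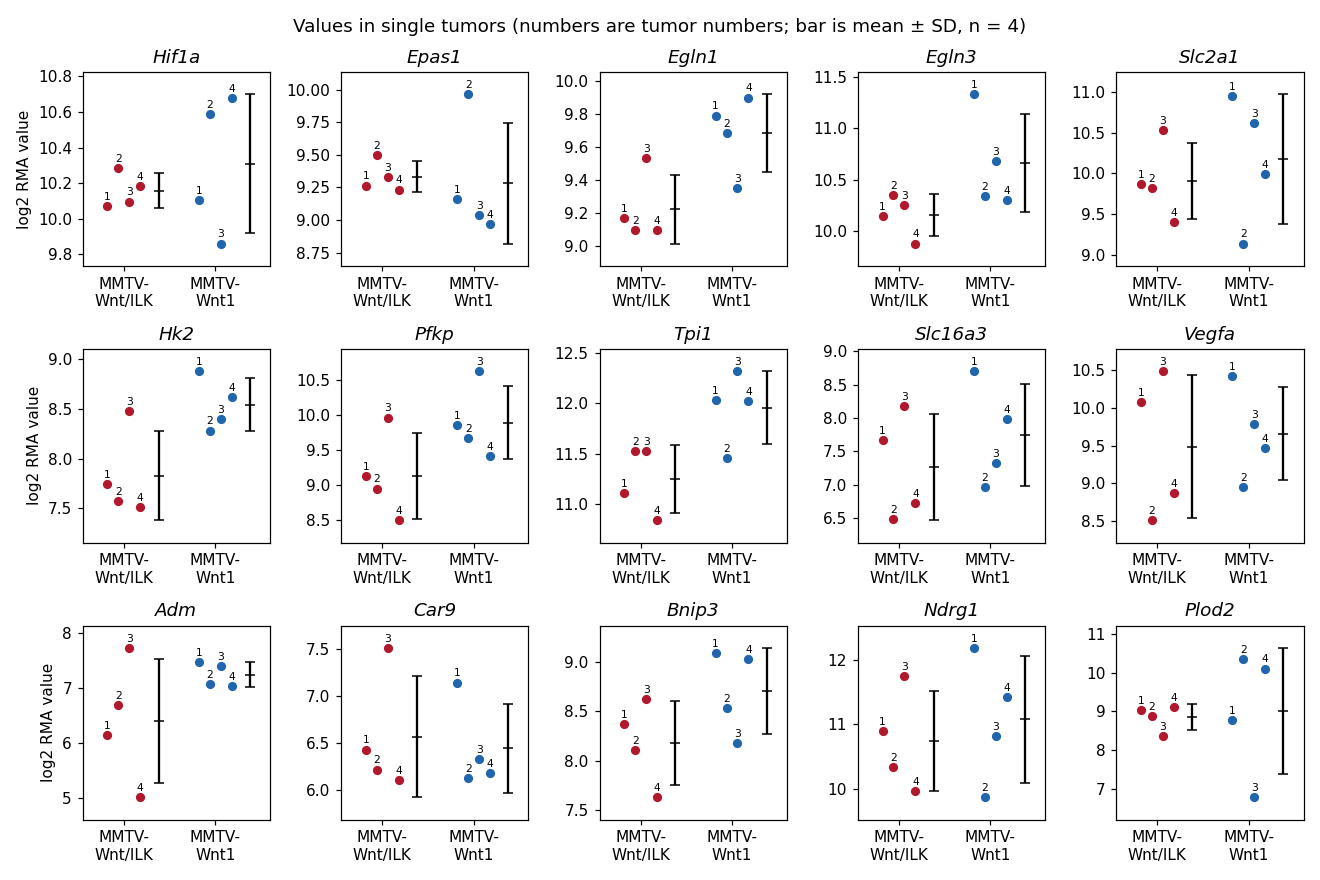
Log2 value of single genes in each tumor, MMTV-Wnt/ILK tumors left and MMTV-Wnt1 tumors right in each panel, 1 numbered point per tumor and a bar for mean ± SD (n = 4). MMTV-Wnt/ILK tumors 1, 2 and 4 lie lower than every MMTV-Wnt1 tumor for Hk2, at 7.51 to 7.74 against 8.28 to 8.88, while the groups interleave for Vegfa and Car9.

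Of the other hypoxia-induced genes, none passed an unadjusted p of 0.05, and their spread within a group was often wider than any difference between groups. Vegfa, the principal angiogenic factor, was at 10.07, 8.51, 10.49 and 8.87 in MMTV-Wnt/ILK tumors and at 10.42, 8.95, 9.79 and 9.47 in MMTV-Wnt1 tumors. It averaged 9.49 ± 0.94 in MMTV-Wnt/ILK tumors and 9.66 ± 0.62 in MMTV-Wnt1 tumors (SD, n = 4 each), so the difference of -0.17 (SE 0.48; exact permutation test, p = 0.771) was far inside the spread of either group. Adm, which encodes the vasodilator adrenomedullin, was at 6.16, 6.70, 7.74 and 5.02 in MMTV-Wnt/ILK tumors and at 7.47, 7.08, 7.41 and 7.03 in MMTV-Wnt1 tumors. MMTV-Wnt/ILK tumors 1, 2 and 4 were lower than every MMTV-Wnt1 tumor and tumor 3 above them, a difference of -0.85 (SE 0.49, limma, unadjusted p = 0.12; exact permutation test, p = 0.171) that moved with single tumors. It was -0.39 without MMTV-Wnt/ILK tumor 4, whose dim value was given above, and -1.29 without MMTV-Wnt/ILK tumor 3 (limma, unadjusted p = 0.315 and 0.0094).

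Car9, the membrane carbonic anhydrase that buffers acid outside hypoxic cells, was at 6.43, 6.22, 7.51 and 6.11 in MMTV-Wnt/ILK tumors and at 7.14, 6.13, 6.33 and 6.18 in MMTV-Wnt1 tumors. A single tumor of each group, MMTV-Wnt/ILK tumor 3 and MMTV-Wnt1 tumor 1, stood above 7 and the other 6 stood at or below 6.43, and the difference between the groups was 0.12 (SE 0.35). It was -0.19 without MMTV-Wnt/ILK tumor 3. Bnip3, a mitophagy receptor, was at 8.37, 8.10, 8.62 and 7.63 in MMTV-Wnt/ILK tumors and at 9.09, 8.53, 8.18 and 9.03 in MMTV-Wnt1 tumors. MMTV-Wnt1 tumors 1 and 4 were above all MMTV-Wnt/ILK tumors for Bnip3, and the difference was -0.52 (SE 0.28, limma, unadjusted p = 0.0925), with -0.67 when MMTV-Wnt/ILK tumor 3 was omitted and -0.70 when MMTV-Wnt1 tumor 3 was, each then with an unadjusted p under 0.05. It shrank to -0.34 when MMTV-Wnt/ILK tumor 4 was omitted and to -0.40 when MMTV-Wnt1 tumor 1 was. Its relative Bnip3l differed by -0.30 (SE 0.22).

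Plod2, which hydroxylates lysines of collagen, was at 9.04, 8.89, 8.37 and 9.10 in MMTV-Wnt/ILK tumors and at 8.78, 10.36, 6.78 and 10.11 in MMTV-Wnt1 tumors. Its range of 3.58 was the widest of the 40 members and lay within the MMTV-Wnt1 group, whose SD was 1.64, against 0.33 in MMTV-Wnt/ILK tumors, and the difference was -0.16 (SE 0.70; exact permutation test, p = 0.971). Leaving out MMTV-Wnt1 tumor 2 turned it to 0.29, leaving out tumor 4 of that group to 0.21, and leaving out tumor 3 gave -0.90 (limma, unadjusted p = 0.05). The prolyl hydroxylases of collagen, P4ha1 and P4ha2, differed by -0.36 (SE 0.28) and -0.37 (SE 0.38), and Plod1 by -0.37 (SE 0.19). Ddit4, an inhibitor of mTORC1, differed by -0.81 (SE 0.45, limma, unadjusted p = 0.108), with MMTV-Wnt/ILK tumors between 8.19 and 8.90 and MMTV-Wnt1 tumors at 9.75, 9.55, 7.94 and 10.31. Without MMTV-Wnt1 tumor 3, the lowest of the 8, its difference was -1.29 (limma, unadjusted p = 0.000852), and without MMTV-Wnt1 tumor 4, the highest, it was -0.50 (limma, unadjusted p = 0.275). Ak4, a mitochondrial adenylate kinase, differed by -0.70 (SE 0.35), Ankrd37 by -0.35 (SE 0.21), Ndrg1 by -0.34 (SE 0.53), the oxidoreductase Ero1l (current symbol Ero1a) by -0.30 (SE 0.34), the histone demethylase Kdm3a by -0.13 (SE 0.17) and the Myc antagonist Mxi1 by less than 0.01 (SE 0.17). Without MMTV-Wnt1 tumor 2, the difference of Ankrd37 was -0.52, and with MMTV-Wnt1 tumor 4 omitted that of Ak4 was -0.95, each with an unadjusted p under 0.05 from limma. Other omissions made both smaller, Ankrd37 at -0.26 with MMTV-Wnt1 tumor 4 omitted and Ak4 at -0.44 with MMTV-Wnt1 tumor 2 omitted.

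Read tumor by tumor, the members did not divide the tumors by genotype. Members above their own mean over the 8 tumors numbered 9, 14, 26 and 5 of 40 in MMTV-Wnt/ILK tumors 1 to 4 and 29, 18, 21 and 25 in MMTV-Wnt1 tumors 1 to 4. MMTV-Wnt/ILK tumor 3 thus had more such members than MMTV-Wnt1 tumors 2, 3 and 4. Over rows naming 1 gene the shares above the mean were 34.4%, 57.8%, 48.7% and 41.6% in MMTV-Wnt/ILK tumors 1 to 4 and 39.7%, 57.0%, 58.0% and 56.6% in MMTV-Wnt1 tumors 1 to 4. MMTV-Wnt/ILK tumor 4 was the lowest of the 8 for 15 of the 40 members, where it was lowest in 9.5% of rows naming 1 gene. Within its group MMTV-Wnt/ILK tumor 3 was the highest for 11 of 16 other hypoxia-induced members and 7 of 17 glycolytic members, against 26.8% of rows naming 1 gene.

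**Figure D3:**
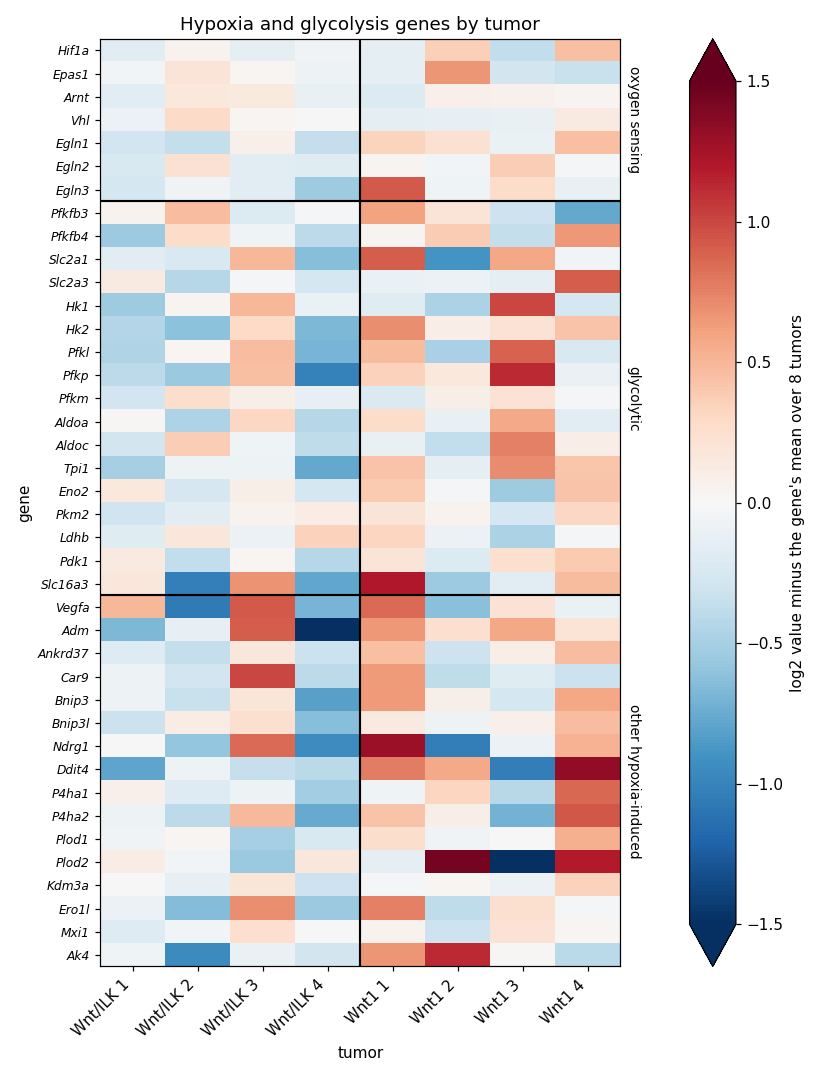
Each measured gene (rows, by role) in each tumor (columns, MMTV-Wnt/ILK left, MMTV-Wnt1 right) as log2 value minus the gene's mean over the 8 tumors, in color. MMTV-Wnt/ILK tumor 4 is below the mean for 35 of 40 genes and MMTV-Wnt1 tumor 1 above it for 29, while MMTV-Wnt/ILK tumor 3 is above it for 26.

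Several members shared a profile across the tumors, and the profiles below were picked out after the values were seen. For Vegfa, Adm, Car9, Ndrg1, Ero1l and Slc16a3 the highest pair of tumors was MMTV-Wnt/ILK tumor 3 and MMTV-Wnt1 tumor 1, that is for 5 of 16 other hypoxia-induced members and 1 of 17 glycolytic members, against 3.56% of rows naming 1 gene. Ndrg1, a stress-responsive differentiation gene, was at 10.90, 10.33, 11.75 and 9.96 in MMTV-Wnt/ILK tumors and at 12.18, 9.87, 10.82 and 11.42 in MMTV-Wnt1 tumors. Slc2a1 was high in the same pair of tumors and also in MMTV-Wnt1 tumor 3. Slc2a1, Slc16a3, Car9 and Adm, whose upstream sequences are printed above, each held at least 1 core there. Most members without this profile also held a core, counted in the longer windows that run from 250 bases before to 50 bases after a start. MMTV-Wnt1 tumor 2 was the lowest of the 8 for 3 of the 40 members (Slc2a1, Ndrg1 and Mxi1), against 10.6% of rows naming 1 gene.

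The same pair of tumors carried skeletal muscle transcripts. Acta1, the skeletal muscle actin, was at 6.53, 6.44, 11.14 and 6.24 in MMTV-Wnt/ILK tumors and at 10.41, 6.85, 6.90 and 6.91 in MMTV-Wnt1 tumors, and the mean level of the 5 measured muscle markers (of 7) ran from 5.93 to 8.88 in MMTV-Wnt/ILK tumors and from 5.97 to 7.93 in MMTV-Wnt1 tumors. Pfkm, the muscle phosphofructokinase, was not high in them, at 8.70 in MMTV-Wnt/ILK tumor 3 and 8.40 in MMTV-Wnt1 tumor 1, with 8.33 to 8.88 in the other 6. The muscle enolase Eno3 and the muscle phosphoglycerate mutase Pgam2, which are not among the 45 genes, were highest in exactly these tumors, Eno3 at 8.63 in MMTV-Wnt/ILK tumor 3 and 7.68 in MMTV-Wnt1 tumor 1 (6.84 to 7.46 in the other 6) and Pgam2 at 6.93 and 6.20 (5.40 to 5.93 in the other 6). MMTV-Wnt1 tumor 1 also had the highest mean level of 4 measured neutrophil markers (of 5), 7.31, with 5.58 to 6.21 in the other MMTV-Wnt1 tumors, and MMTV-Wnt/ILK tumor 3 the highest of its group, 6.52 against 5.79 to 6.17. S100a8 and S100a9 were highest in MMTV-Wnt1 tumor 1, at 8.03 and 7.22. Cxcr2 and Csf3r were highest in MMTV-Wnt/ILK tumor 3, at 7.23 and 6.92, against 7.17 and 6.82 in MMTV-Wnt1 tumor 1. The part of muscle or neutrophils in the values of the hypoxia genes was not tested. With both tumors left out (3 against 3, chosen after seeing the data), the median difference was -0.36 for glycolytic, -0.38 for other hypoxia-induced and -0.16 for oxygen-sensing members, 35 of 40 members had a lower mean, and 5 had an unadjusted p under 0.05 from limma, among them Adm at -1.22 and Pfkp at -1.05. In that fit 1791 of 23332 rows were under the same threshold, against 1193 with all 8 tumors.

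Of the 4 collagen-modifying members, Plod2, P4ha1 and P4ha2 shared another profile within the MMTV-Wnt1 group and Plod1 did not. In the MMTV-Wnt/ILK group, Plod2 was highest in tumor 4 and lowest in tumor 3, while P4ha1 and P4ha2 were lowest in tumor 4. Plod2 was low in MMTV-Wnt1 tumor 3, at 6.78, and high in MMTV-Wnt1 tumors 2 and 4. P4ha1 was at 9.57, 9.30, 9.42 and 8.97 in MMTV-Wnt/ILK tumors and at 9.43, 9.82, 9.08 and 10.36 in MMTV-Wnt1 tumors, and P4ha2 was at 7.98, 7.66, 8.54 and 7.30 in MMTV-Wnt/ILK tumors and at 8.49, 8.15, 7.35 and 8.99 in MMTV-Wnt1 tumors. For these 3 genes, MMTV-Wnt1 tumor 3 was the lowest of its group and MMTV-Wnt1 tumor 4 at least 1 unit above it. Plod1 was at 10.00, 10.08, 9.56 and 9.82 in MMTV-Wnt/ILK tumors and at 10.31, 10.00, 10.06 and 10.58 in MMTV-Wnt1 tumors, where tumor 2 was the lowest of its group. MMTV-Wnt1 tumor 3 was also the lowest of the 8 for 5 of 5 fibroblast markers. Their mean level was 7.57 there, with 10.01 to 10.69 in MMTV-Wnt/ILK tumors and 10.14 to 10.29 in the other MMTV-Wnt1 tumors. P4ha1 and P4ha2, in contrast, were the lowest of the 8 in MMTV-Wnt/ILK tumor 4, where that mean was highest, at 10.69. The part of fibroblasts in these values was not tested.

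**Figure D4:**
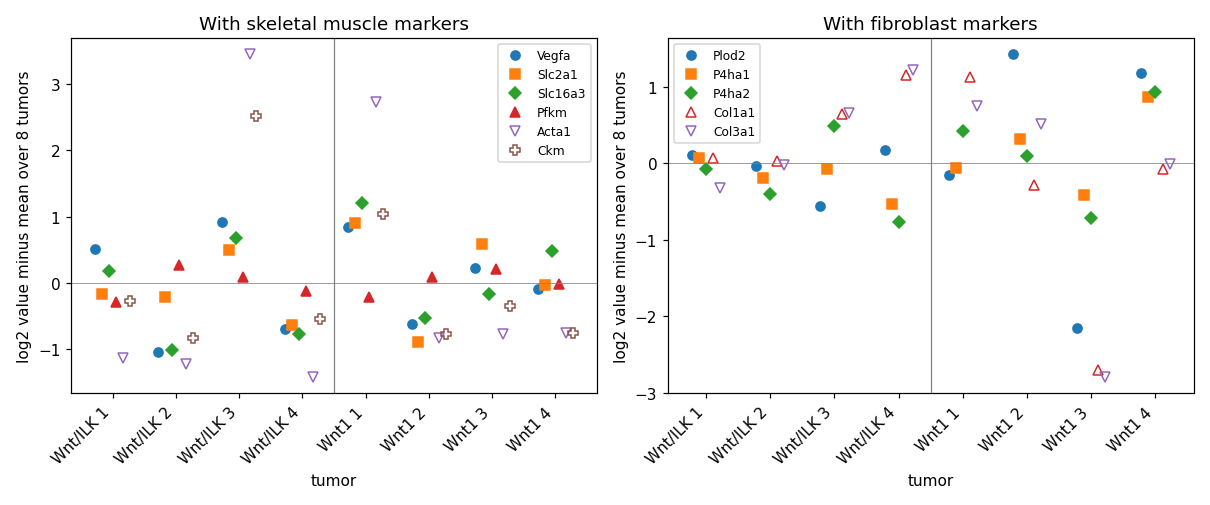
Log2 value minus the mean over 8 tumors for hypoxia genes (filled symbols) and markers of other cell types (open symbols), 1 symbol per tumor, MMTV-Wnt/ILK tumors left of the vertical line. Acta1 and Ckm mark skeletal muscle and are raised in MMTV-Wnt/ILK tumor 3 and MMTV-Wnt1 tumor 1. Vegfa is also high in these tumors, and it is at 10.07 in MMTV-Wnt/ILK tumor 1, where Acta1 is at 6.53. Col1a1 and Col3a1 mark fibroblasts and are low in MMTV-Wnt1 tumor 3, where Plod2 is at 6.78.

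The glycolytic members were split in that tumor. Hk1, Pfkl, Pfkp, Aldoa, Aldoc and Tpi1 were each at their highest of the 8 in MMTV-Wnt1 tumor 3, so that it was the highest for 6 of 17 glycolytic members and 0 of 16 other hypoxia-induced members, against 17.0% of rows naming 1 gene. Eno2 at 6.13 and Ldhb at 7.76 were the lowest of the 8 there, and it was the lowest of its group for 5 of 17 glycolytic members, where it was so in 17.0% of rows naming 1 gene. Pfkl was at 9.99, 10.46, 10.91 and 9.75 in MMTV-Wnt/ILK tumors and at 10.92, 9.95, 11.33 and 10.21 in MMTV-Wnt1 tumors, and Hk1 was at 8.58, 9.15, 9.61 and 9.02 in MMTV-Wnt/ILK tumors and at 8.93, 8.64, 10.11 and 8.85 in MMTV-Wnt1 tumors. Within the MMTV-Wnt/ILK group the 6 enzymes that peaked in MMTV-Wnt1 tumor 3 were highest in tumor 3, except Aldoc, which was highest in tumor 2, and Tpi1, for which tumors 2 and 3 were both at 11.53. Glycolytic and other hypoxia-induced members thus ranked MMTV-Wnt1 tumors 3 and 4 differently, with medians relative to each gene's mean of 0.22 and 0.10 for glycolytic members and of -0.04 and 0.46 for other hypoxia-induced members.

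Further genes of the same pathways, from longer lists, gave no adjusted call either. Of 16 measured regulators and partners of HIF (of 18), 7 had a higher and 9 a lower mean, and 0 had an unadjusted p under 0.05 from limma, with a median of -0.02. Of 26 further hypoxia-induced genes (of 30), 8 had a higher and 18 a lower mean, with a median of -0.15. At an unadjusted p under 0.05 from limma, 1 was lower and 2 were higher. Over rows naming 1 gene, 1.84% were lower and 1.87% higher at that threshold. Jmjd6, a lysyl hydroxylase of splicing factors, differed by -0.33 (SE 0.13), with MMTV-Wnt/ILK tumors between 7.96 and 8.26 and MMTV-Wnt1 tumors between 8.43 and 8.49. Bhlhe41, a repressor of the clock, differed by 0.84 (SE 0.26), with MMTV-Wnt/ILK tumors between 11.11 and 11.22 and MMTV-Wnt1 tumors between 9.88 and 11.06. Stc2, a secreted glycoprotein that also responds to estrogen, differed by 1.38 (SE 0.54), and its groups overlapped. Of these 26 genes the groups did not overlap for 2, Jmjd6 and Bhlhe41. Of 18 further genes of glycolysis and pyruvate use (of 28), 7 had a higher and 11 a lower mean, with a median of -0.27, and 3 were lower and 0 higher at that threshold. These were Pdk4, a kinase that inhibits pyruvate dehydrogenase (-1.50, SE 0.53), Fbp2, the muscle fructose bisphosphatase (-0.41, SE 0.16), and Tigar, a fructose bisphosphatase induced by p53 (-0.32, SE 0.14). For each of the 3 the groups did not overlap. Counting Pklr (-0.24, SE 0.13), they did not overlap for 4 of the 18 genes, against 2.7% of rows naming 1 gene. Pdk4 was between 6.49 and 7.51 in MMTV-Wnt/ILK tumors and at 8.62, 10.23, 7.83 and 7.69 in MMTV-Wnt1 tumors, and its highest value was in MMTV-Wnt1 tumor 2, where all 5 measured fat markers were highest; their part in it was not tested.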

How the data were processed

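Tumor RNA was depleted of ribosomal RNA, labelled and hybridized to exon arrays, and the authors computed gene-level values with the RMA algorithm of ArrayAssist. RMA removes background and combines probes into 1 value per transcript. The deposited table holds these log2 values, described as quantile-normalized. Base 2 was inferred from how far the values extend. The arrays' medians were not equal and ran from 6.89 to 7.23. With a repeated quantile normalization the median difference was -0.20 for glycolytic, -0.30 for other hypoxia-induced and -0.10 for oxygen-sensing members. Without it these were -0.28, -0.35 and -0.15. The genome build of the annotation is not given in the sources used here. Rows were named through the platform annotation, which names 1 gene on 14996 rows, several on 1019 and none on 7317, with older symbols matched through RefSeq (GRCm38.p6).

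The groups were compared with limma 3.58.1 in R 4.3.3 (lmFit, eBayes, no covariate, no filter) over all 23332 rows, with Benjamini-Hochberg adjustment, after a test on simulated data. Unadjusted p-values are given as a description. An exact 2-sided permutation test on the values of 1 gene enumerated the 70 possible divisions of the tumors. Precision is limited by having 8 arrays.

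The members, the lists and the tests were chosen with earlier results of these data known, so lists are described by counts and medians without a test. Genes given in every tumor were Hif1a, Vegfa, Slc2a1, Car9, Hk2 and Bnip3 (with Ldha and Pgk1, had they been measured), members with an unadjusted p under 0.05 or groups apart, and the 2 members of each role with the widest range. Others were added after their values were seen, namely Ndrg1, Plod1, P4ha1, P4ha2, Pfkl, Hk1, Eno3 and Pgam2. The values of the muscle marker Acta1 and the MMTV-Wnt1 values of Ddit4 and Pdk4 were added in the same way. Up to 4 genes with the smallest p are named per further list. Alternatives covered the variance model, array weights, dim rows, normalization, scaling to Actb, the tumor number as a block, the rows used and leaving out each tumor. Leaving out both tumors with muscle transcripts, or the Pkm2 row, was chosen after seeing the data. Exon-level values were not analysed here.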

Additional observations from a re-analysis of the deposited data

Results flagged for a closer look

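In 5 of the 80 groups of 4 tumors examined, 1 tumor lay far from the other 3, with a gap to its nearest neighbor that took up most of the range of its group, where 4.0 such groups are expected by chance. Vhl was at 8.16 in MMTV-Wnt1 tumor 4 and between 7.88 and 7.92 in the other MMTV-Wnt1 tumors. Arnt was at 9.76 in MMTV-Wnt1 tumor 1 and between 10.00 and 10.04 in the others of its group. Egln1 was at 9.53 in MMTV-Wnt/ILK tumor 3 and between 9.09 and 9.17 in the others of its group, and it is this tumor that overlaps the MMTV-Wnt1 tumors. Egln2 was at 8.87 in MMTV-Wnt/ILK tumor 2, with 8.41 to 8.48 in the others of its group. Slc2a3 was at 7.80 in MMTV-Wnt1 tumor 4, with 6.76 to 6.81 in the others of its group.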

How the results depend on the processing

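The count of rows at an unadjusted p under 0.05 (1193, limma) was 2607 with array weights, 662 when only rows naming 1 gene were tested, 1791 without both tumors that carry muscle transcripts, and 727 (without MMTV-Wnt/ILK tumor 4) to 2010 (without MMTV-Wnt1 tumor 1) when 1 tumor was left out. Rows at an adjusted p under 0.05 numbered 0 to 13 when 1 tumor was left out, with 13 without MMTV-Wnt/ILK tumor 2, none of them a member. They numbered 0 under the other alternatives in which they were counted. They were not counted with the scaling to Actb or with the mean of a gene's rows. When 1 tumor was left out, the median difference ran from -0.38 to -0.19 for glycolytic members, from -0.49 to -0.21 for other hypoxia-induced members and from -0.19 to -0.05 for oxygen-sensing members, and 31 to 35 of 40 members had a lower mean. The cause of these shifts was not tested.

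Relative to Actb, the medians were 0.27 for glycolytic, 0.21 for other hypoxia-induced and 0.40 for oxygen-sensing members, with 6 members lower, since that scaling shifts every row by the difference of Actb. It turned the sign of Hif1a (0.40), Egln1 (0.091), Egln2 (0.38), Egln3 (0.041), Vegfa (0.38), Ankrd37 (0.20), Bnip3 (0.028), Bnip3l (0.25), Ndrg1 (0.21), P4ha1 (0.19), P4ha2 (0.18), Plod1 (0.18), Plod2 (0.39), Kdm3a (0.42), Ero1l (0.25), Pfkfb4 (0.19), Slc2a1 (0.28), Slc2a3 (0.26), Hk1 (0.51), Pfkl (0.23), Pfkm (0.52), Aldoa (0.27), Aldoc (0.37), Eno2 (0.42), Pkm2 (0.41), Pdk1 (0.24) and Slc16a3 (0.069). Array weights turned Epas1 (-0.037), Arnt (-0.059), Vegfa (0.057) and Hk1 (0.03), median-centring Arnt (-0.005) and Mxi1 (-0.018), a repeated quantile normalization Mxi1 (-0.017), and leaving out both muscle-bearing tumors Arnt (-0.094) and Mxi1 (-0.062). Leaving out 1 tumor turned the sign in at least 1 fit for Epas1 (-0.054 to 0.28), Arnt (-0.048 to 0.071), Vegfa (-0.50 to 0.15), Car9 (-0.19 to 0.35), Ndrg1 (-0.74 to 0.033), Plod2 (-0.90 to 0.29), Pfkfb3 (-0.089 to 0.37), Hk1 (-0.22 to 0.28), Pfkm (-0.12 to 0.061), Aldoc (-0.34 to 0.041), Ldhb (-0.007 to 0.26) and Mxi1 (-0.099 to 0.076).

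Tumors of the same number correlated at 0.107, 0.132, 0.155 and -0.004 in their deviations from the group means, and tumors of different numbers at -0.238 to 0.134. These values do not settle whether the number pairs tumors. The labels give it only as a replicate number, so it was not taken to pair them. With the number as a replicate block, 1485 rows had an unadjusted p under 0.05 and 0 an adjusted one; Egln1 no longer had an unadjusted p under 0.05 (limma, unadjusted p = 0.0697) while Pfkp did (limma, unadjusted p = 0.00177), and 3 members were under 0.05.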

Other observations

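Markers of cell types were compared between the groups and between single tumors. Their median difference, MMTV-Wnt/ILK minus MMTV-Wnt1, was 0.06 over 4 luminal, -0.10 over 4 basal, -0.07 over 6 endothelial, 0.78 over 5 fibroblast, -0.45 over 5 fat, 0.19 over 5 skeletal muscle, 0.19 over 5 macrophage, -0.23 over 4 neutrophil, 0.02 over 4 lymphocyte and -0.45 over 2 red blood cell markers, and 0 of these markers had an unadjusted p under 0.05 from limma. MMTV-Wnt1 tumor 3 was the lowest of the 8 for all 5 fibroblast markers, at a mean of 7.57, and fat markers were high in MMTV-Wnt1 tumor 2 alone, at a mean of 7.89, against 5.68 to 6.05 in MMTV-Wnt/ILK tumors and 5.59 to 6.11 in the other MMTV-Wnt1 tumors. Fbp1, the liver fructose bisphosphatase of gluconeogenesis, picked out after its values were seen, was between 5.14 and 6.61 in MMTV-Wnt/ILK tumors and stood at 10.31 in MMTV-Wnt1 tumor 4, with 5.57 to 6.01 in the other MMTV-Wnt1 tumors.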
